A study of Homo sapiens with 15 samples.

Results

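The introns described here are the shortest in the series, those of 150 nucleotides (nt) or less. They were chosen by length alone, as the end minus the start coordinate, and no measured level was used. There were 11962 of them among the 111143 introns listed for any clone (10.8%), against 99181 introns over 150 nt, and 9907 were listed for all 4 clones. The data are junction reads from polyadenylated RNA of HCT116 cells, a human colon cancer line grown in DMEM with serum. The groups were the 4 clones KO-1 to KO-4, each with the genotype bktRNA1-/-, and the wild-type line (WT), with 3 libraries in each group. Every clone is a single isolate and there was 1 WT line, so each p-value sets 1 clone against 1 line and measures only the spread between these libraries, which may be technical. The level of bktRNA1 itself was not analysed here, so the genotype rests on the labels. The question behind the comparison is how intron retention differs in cells depleted of bktRNA1.

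Very short introns are usually recognised as a unit, with the splice sites at both ends of the intron paired across it, whereas long introns are recognised through the exons beside them. They are common in genes with GC-rich, compact structures, and below a minimum length both ends cannot be held by the spliceosome at once. A small minority of human introns are U12-type, with their own start and branch site sequences, and are removed by the minor spliceosome. Retention means that the intron is still present in a polyadenylated transcript.

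The short introns had a median length of 99 nt (quartiles 86 and 119), and 74.4% were from 70 nt to below 120 nt long. The shortest had 26 nt and 101 were under 70 nt. They came from 4469 genes, of which LAMA5, a laminin chain, held 38 and CPSF1, a subunit of the cleavage and polyadenylation complex, held 33. In 694 genes there were 5 or more. Of the short introns 90.6% interrupted coding sequence, 3.18% a 5′UTR and 1.94% a 3′UTR, and 4.32% lay in noncoding transcripts. Among longer introns 85.8% interrupted coding sequence. Only 6.46% of short introns were the first of their transcript, against 13.9% of longer ones. An annotated exon of another transcript, on either strand, overlapped 21.8% of short introns and 40.1% of longer ones, in whole or in part. Of the coding short introns 32.8% had a length divisible by 3, against 33.6% of longer ones.

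Sequences were read from GENCODE release 29 transcripts (GRCh38/hg38), wherever exons of other transcripts, retained-intron ones included, cover an intron. This gave the whole sequence of 3763 short introns (31.5%). These were retained more than the rest, at a median of 7.83% in WT against 0.971%, so they are not a fair sample of all short introns. Their median GC content was 61.2% (quartiles 51.7% and 67.6%). The ends were GT and AG in 97.4%, GC and AG in 70 introns and AT and AC in 6. The first sequences shown are of very short introns of different kinds. The XBP1 intron (chr22:28796122-28796147, minus strand) is cut out by the stress sensor IRE1 and not by the spliceosome, and that of the splicing factor gene HNRNPH1 (chr5:179617933-179617988, minus strand) is a 56 nt coding intron that was spliced in most transcripts. In HNRNPH1 capitals mark the first 6 and last 3 bases.
XBP1, 26 nt: ctcagactacgtgcacctctgcagca
HNRNPH1, 56 nt: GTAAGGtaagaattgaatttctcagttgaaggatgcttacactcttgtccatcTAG

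A short intron was taken as U12-type if its first 8 bases had at most 1 mismatch to GTATCCTT or ATATCCTT, and a stretch of its last 40 bases had at most 2 mismatches to TTCCTTAAC, on the intron's own strand. Both ends were read for 3773 short introns, and 12 of them (0.318%) passed, against 75 of 14252 longer introns (0.526%). An exact match to either start was found in 10 of 4055 short introns (0.247%) and in 136 of 26433 longer ones (0.515%). The branch site match alone is common, in 7.02% of 4057 short introns and 9.58% of 24911 longer ones. The U12-type introns shown are those on which the results below turn, and 1 with AT and AC ends (ARL16). They are CHD4 (chr12:6577918-6578028), KRTCAP2 (chr1:155172629-155172737), ZCCHC8 (chr12:122483345-122483459) and ARL16 (chr17:81683595-81683692) on the minus strand, and EDC4 (chr16:67881846-67881953) on the plus strand. Capitals mark the first 8 bases, the 9 bases closest to the branch site and the last 2 bases.
CHD4, 111 nt: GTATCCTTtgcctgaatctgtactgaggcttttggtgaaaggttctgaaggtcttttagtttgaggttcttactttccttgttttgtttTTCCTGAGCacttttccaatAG
KRTCAP2, 109 nt: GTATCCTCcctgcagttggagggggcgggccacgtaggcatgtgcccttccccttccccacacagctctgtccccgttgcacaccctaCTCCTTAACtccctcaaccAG
ZCCHC8, 115 nt: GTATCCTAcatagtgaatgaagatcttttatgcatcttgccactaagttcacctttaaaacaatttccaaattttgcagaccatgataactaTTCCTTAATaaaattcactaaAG
ARL16, 98 nt: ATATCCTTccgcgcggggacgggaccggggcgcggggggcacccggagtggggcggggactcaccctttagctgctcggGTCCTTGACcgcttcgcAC
EDC4, 108 nt: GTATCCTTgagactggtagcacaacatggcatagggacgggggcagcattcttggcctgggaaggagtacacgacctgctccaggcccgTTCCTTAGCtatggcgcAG

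6 other short introns with U2-type ends are shown because their retention differed between a clone and WT. PSMA1 (chr11:14513700-14513816, minus strand) was called higher in 3 clones and BAX (chr19:48955600-48955686, plus strand) in KO-2. EIF4A2 (chr3:186784478-186784563, plus strand), HNRNPC (chr14:21211307-21211405, minus strand), ZNF276 (chr16:89737906-89737975, plus strand) and VPS9D1 (chr16:89711970-89712046, minus strand) were called lower in 1 or 2 clones. Their GC content ran from 17.9% in PSMA1 to 79.2% in VPS9D1. Capitals mark the first 6 and the last 3 bases.
PSMA1, 117 nt: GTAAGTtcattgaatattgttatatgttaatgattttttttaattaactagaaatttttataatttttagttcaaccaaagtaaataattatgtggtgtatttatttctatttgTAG
BAX, 87 nt: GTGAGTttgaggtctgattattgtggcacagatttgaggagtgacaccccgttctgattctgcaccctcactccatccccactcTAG
EIF4A2, 86 nt: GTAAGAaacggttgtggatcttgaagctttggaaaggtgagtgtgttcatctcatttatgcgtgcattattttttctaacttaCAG
HNRNPC, 99 nt: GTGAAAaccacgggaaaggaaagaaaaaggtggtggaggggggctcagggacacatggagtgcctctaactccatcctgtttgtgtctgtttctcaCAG
ZNF276, 70 nt: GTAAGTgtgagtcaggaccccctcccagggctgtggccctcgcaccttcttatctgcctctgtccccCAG
VPS9D1, 77 nt: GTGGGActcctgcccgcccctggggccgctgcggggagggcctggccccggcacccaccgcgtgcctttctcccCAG

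The libraries held between 17287797 and 35348260 junction reads over introns listed for all 4 clones, of which 2744060 to 5814147 fell on short introns. Retained reads made up 12% to 12.7% of the reads on short introns and 12.3% to 13.9% of those on longer ones. Among markers of the line, 4 of 10 colon epithelial genes had introns listed for all 4 clones (EPCAM, KRT8, KRT18 and CDX2), with 1 of 6 fibroblast genes and none of 5 immune or 3 endothelial genes. The second- and third-listed WT libraries lay on opposite sides of the first. In the results that follow, leaving out the third raised the counts of higher calls most. Relative to the WT mean, the log2 odds of retention of the median short intron were 0.20 in the third-listed WT library, -0.20 in the second and 0.00 in the first. In the clone libraries that shift lay between -0.12 and 0.16, so the 3 WT libraries spread more widely than the 12 clone libraries.

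The retention level is the share of retained reads after each count is divided by the effective length of its form, so that the 2 forms can be compared. Most short introns were almost fully spliced. The median level over the 9907 short introns was 1.99% ± 0.14, 1.82% ± 0.25, 1.76% ± 0.10 and 1.97% ± 0.06 for clones KO-1 to KO-4 and 1.76% ± 0.34 for WT (SD, n = 3 libraries each). Over all listed introns, longer ones had lower medians, of 1.37%, 1.28%, 1.22% and 1.36% in the clones and 1.19% ± 0.23 in WT. Among introns with enough reads for the test the order was the reverse, as given below. For short introns the WT libraries alone ran from 1.43% to 2.11%, a range that holds the means of all 4 clones. Levels above 50% were seen for 9.66% to 9.95% of short introns in the clones and 9.78% in WT. In untranslated and noncoding regions short introns had high levels. The medians in 5′UTRs were 67.7%, 68.1%, 66.7% and 69.1% in KO-1 to KO-4 and 69% in WT, and those of noncoding transcripts were 91.4%, 90.8%, 91.5% and 92.0% in the clones and 90.6% in WT. Coding short introns had medians of 1.75%, 1.56%, 1.55% and 1.73% in the clones and 1.55% in WT. The WT median was 14.4% for 2197 short introns overlapped by an annotated exon of another transcript. It was 1.23% for the 7710 without one. The part that such exons play in the levels by region or length was not tested.

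Within the short introns the level varied with length. Introns under 70 nt had medians of 19%, 15.1%, 18.0% and 16.3% in KO-1 to KO-4 and 15.8% in WT. At 70 to 79 nt the medians were 4.22%, 3.71%, 3.86% and 4.01% in the clones and 3.79% in WT. From 80 to 109 nt they were below 2% in every group, and WT was lowest at 100 to 109 nt with 1.30%. In the classes just above the limit of 150 nt the levels were higher again, at 2.16% in WT for introns over the limit and up to 200 nt, and they were lower for the longest, at 0.693% in WT for introns over 10000 nt. Over single introns the Spearman correlation between length and WT level was -0.06 (n = 9907 short introns, which share libraries). Around the limit the WT medians were 2.32% at 149 nt (69 introns), 1.47% at 150 nt (71 introns), 1.47% for introns 1 nt longer (62 introns) and 2.99% at 152 nt (62 introns).

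**Figure D1:**
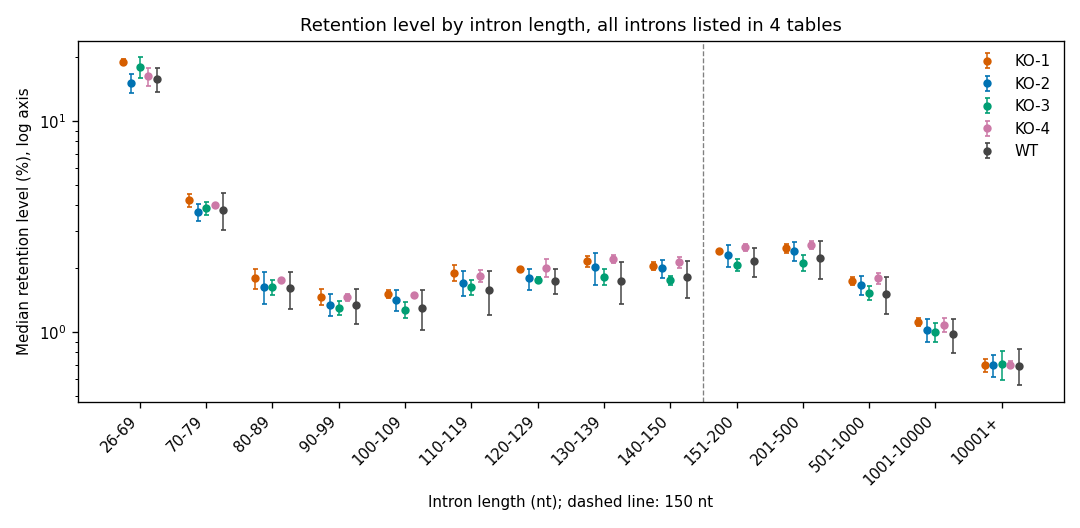
Median retention level (percent, log axis) by intron length class in nt for KO-1 to KO-4 and WT, over introns listed for all 4 clones; points are means and bars SD over 3 libraries, and the dashed line stands at 150 nt. The class under 70 nt lies at 15.1% to 19%, levels are lowest near 100 nt among the short introns, and the clones overlap WT within the bars in most classes.

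The shortest introns with enough reads did not pass the test in any clone. The 26 nt intron of XBP1, the transcription factor made when IRE1 cuts this intron out, was retained at 89.7% ± 6.3, 86.1% ± 1.5, 87.5% ± 3.5 and 88.0% ± 1.9 in KO-1 to KO-4 and 86% ± 0.81 in WT. The 38 nt intron of EIF4A3, a core protein of the exon junction complex, lay in the 5′UTR and had 79.2%, 79.4%, 80.2% and 79.5% in the clones and 81.1% ± 1.4 in WT. The 40 nt intron of SHISA5, an apoptosis-related membrane protein, had 79.9%, 82.7%, 84.2% and 83.6% in the clones and 83.4% ± 1.8 in WT. Annotated exons of other transcripts overlap all 3 of these introns. The 56 nt intron of HNRNPH1 was spliced in most transcripts, with 5.26% ± 0.39, 5.59% ± 0.98, 5.08% ± 0.23 and 5.39% ± 0.43 in the clones and 5.34% ± 0.86 in WT. The 65 nt intron of TNFRSF18, a TNF receptor family member, had 26.2%, 22.0%, 24.9% and 23.9% in the clones and 26.2% ± 5.9 in WT.

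The lowest levels were ranked among short introns tested in all 4 comparisons with at least 50 spliced reads. The minimum of 10 retained reads holds there too, so a low level could be seen only in transcripts with many spliced reads, and introns with fewer retained reads were not ranked. RPL7, a ribosomal protein, was retained in its 111 nt intron at 0.0324%, 0.0401%, 0.0562% and 0.0389% in KO-1 to KO-4 and 0.0509% ± 0.017 in WT. The 108 nt intron of the elongation factor gene EEF1A1 had 0.0554%, 0.0594%, 0.0473% and 0.0581% in the clones and 0.0579% ± 0.0077 in WT. HSP90AB1, HNRNPA1, TUBA1B and ACTB, which encode a chaperone, a splicing repressor, a tubulin and an actin, completed the lowest 6. The highest levels, between 83.2% and 95.1% in the clones and between 87.5% and 92.7% in WT, were those of CNBP, CENPX, RPL8, TRAPPC1, LUC7L3 and SNHG7. None of these highest 6 passed the test against WT. Of the lowest 6, only ACTB did, in KO-3.

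For the test, an intron needed at least 10 reads of each form, as a mean over the 6 libraries compared. That left 3023, 3664, 3362 and 3780 short introns for KO-1 to KO-4 (29% to 33.2% of those listed) beside 15781 to 20489 longer ones, and 2922 short introns were tested in all 4 comparisons. Over these the median level was 8.23% ± 0.38, 7.65% ± 0.51, 7.75% ± 0.44 and 8.14% ± 0.05 in the clones and 7.85% ± 1.1 in WT. Longer introns tested in all 4 had higher medians, of 9.46%, 9.20%, 8.66% and 9.57% in the clones and 8.68% ± 1.2 in WT. At similar numbers of retained reads the WT medians were also lower for short introns. In the KO-1 comparison they were 8.69% against 10.6% at 20 to below 50 reads. The test was a quasi-binomial F test on the reads of both forms, adjusted by Benjamini-Hochberg over all introns of the table, with a threshold of 0.05. A change is given as the log2 odds of retention, clone over WT, where 1 stands for odds that are 2-fold higher. All 4 comparisons share the 3 WT libraries.

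Few short introns differed from WT. In KO-1 16 short introns rose and 2 fell, where over all introns tested 1.29% were called higher and 0.175% lower. In KO-2 16 rose and 15 fell, beside 1.3% and 0.304% over all introns. In KO-3 9 rose and 5 fell, beside 0.558% and 0.155%. In KO-4 32 rose and 22 fell, beside 1.54% and 0.429%. The share of short introns called higher was 0.529%, 0.437%, 0.268% and 0.847% in KO-1 to KO-4, and longer introns with the same number of retained reads had 1.42%, 1.43%, 0.611% and 1.67%. The share called lower was 0.066%, 0.409%, 0.149% and 0.582% for short introns and 0.181%, 0.272%, 0.144% and 0.385% for longer ones at the same reads. No test was made of the difference between these shares. The shares are totals over bins of retained reads. In KO-4 at 10 to below 20 reads, more short than longer introns were called higher (0.666% against 0.580%). The same held in KO-3 at 100 to below 200 reads (0.976% against 0.883%). In every other bin the share called higher was smaller for short introns. The median change of the short introns was 0.11, 0.00, 0.05 and 0.10 on the log2 odds scale, and that of longer introns was 0.13, 0.11, 0.02 and 0.18.

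**Figure D2:**
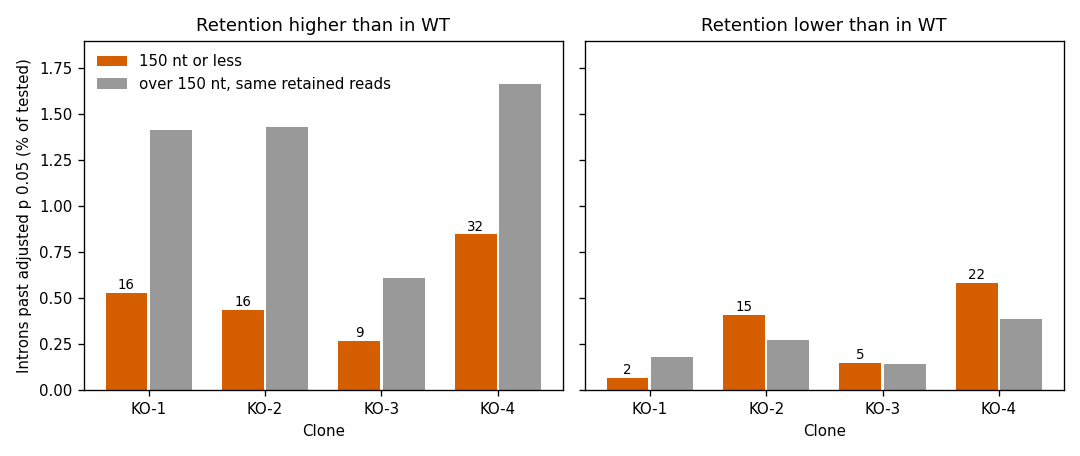
Percent of tested introns past adjusted p 0.05 with higher (left) and lower (right) retention in each clone than in WT, for introns of 150 nt or less (orange, with their number) and longer introns standardised to the same retained reads (grey). Over all bins of reads together, the share called higher is smaller for short than for longer introns in each clone (0.268% to 0.847% against 0.611% to 1.67%). The lower calls have no common order.

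The counts depend on single WT libraries and on the centre. Without the third-listed WT library the short introns called higher and lower were 57 and 7 in KO-1, 44 and 18 in KO-2, 24 and 11 in KO-3, and 117 and 26 in KO-4. Without the first-listed WT library they were 8 and 0, 8 and 9, 4 and 2, and 17 and 16, and without the second 8 and 5, 6 and 13, 4 and 5, and 14 and 25. With each comparison centred on its median intron they were 7 and 5, 9 and 35, 7 and 6, and 10 and 40, so that in KO-2 and KO-4 more short introns were lower than higher. With limma on the log2 odds the only short introns past the threshold were 1 higher in KO-1 (PSMA1) and 1 higher in KO-3 (SERBP1), whereas 177, 152, 128 and 239 higher and 61, 145, 87 and 108 lower had an unadjusted p under 0.05. In all 56 settings tried, 14 per clone, the share of short introns called higher was below that of longer introns standardised to the same reads. For lower calls it was below in 23, above in 32 and equal in 1. The settings reuse the same libraries and are not independent, and they include the authors' FDR. With no filter, introns below the lowest bin of retained reads were counted in that bin, so reads were not matched there.

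In all, 94 short introns of 84 genes were called in any comparison, and none was called in opposite directions. With retained-intron transcripts left out, 50 of the 94 had no overlapping exon. With such transcripts included, annotated exons covered the whole sequence of 54. Of the short introns tested in all 4 comparisons, 2 were called higher in all 4 clones (CHD4 and BOP1) and 1 in 3 of them (PSMA1), while none was called lower in more than 2. CHD4 is the ATPase of the NuRD chromatin remodelling complex, and its intron 37 of 40 is the U12-type intron shown above. Its level was 4.15%, 4.65% and 3.43% in the KO-1 libraries, 2.23%, 2.72% and 2.17% in KO-2, 2.01%, 4.10% and 2.22% in KO-3, 2.63%, 2.42% and 3.41% in the KO-4 libraries, and 0.554%, 1.07% and 1.20% in WT. No clone library overlapped the WT range. The WT levels rest on 9, 19 and 18 retained reads. The log2 odds rose by 2.16 ± 0.35 in KO-1 (SE, quasi-binomial test, adjusted p = 1.7e-06), 1.35 ± 0.35 in KO-2 (adjusted p = 0.012), 1.59 ± 0.37 in KO-3 (adjusted p = 0.0049) and 1.62 ± 0.34 in KO-4 (adjusted p = 0.00066). The call in KO-2 was lost without the second-listed KO-2 or the first-listed WT library, and that in KO-3 without the second-listed KO-3 or the first-listed WT library. The intron is also assigned to the overlapping gene AC006064.6, so its reads cannot be credited to CHD4 alone.

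PSMA1 encodes an alpha subunit of the 20S proteasome core, and its intron 7 of 10 shares 1 end with another listed intron. The levels were 3.92%, 4.38% and 4.80% in KO-1, 3.95%, 3.72% and 3.35% in KO-2, 2.80%, 2.15% and 1.97% in KO-3, 1.75%, 1.96% and 1.77% in the KO-4 libraries, and 1.30%, 1.06% and 1.08% in WT. KO-1 and KO-2 were high, KO-3 and KO-4 lower, and no clone library overlapped WT. The log2 odds rose by 1.98 ± 0.24 in KO-1 (adjusted p = 8.1e-10), 1.72 ± 0.24 in KO-2 (adjusted p = 8.3e-08) and 1.05 ± 0.25 in KO-3 (adjusted p = 0.013, quasi-binomial test). In KO-4 the change was 0.69 ± 0.25 (adjusted p = 0.15). The KO-3 call was lost without the first-listed KO-3 or the second-listed WT library. PSMA1 is on the list of genes taken to carry a U12-type intron, but this intron has U2-type ends.

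BOP1, a factor of large ribosomal subunit assembly, was called in its 97 nt intron 5 of 15. The levels were 7.42%, 6.27% and 8.11% in KO-1, 6.90%, 7.50% and 7.44% in KO-2, 9.69%, 5.52% and 5.56% in KO-3, 7.57%, 9.30% and 7.23% in the KO-4 libraries, and 3.71%, 2.47% and 4.61% in WT. All clone libraries were above all WT libraries. The log2 odds rose by 1.10 ± 0.27 in KO-1 (adjusted p = 0.017), 1.13 ± 0.25 in KO-2 (adjusted p = 0.0031), 1.02 ± 0.26 in KO-3 (adjusted p = 0.037) and 1.28 ± 0.24 in KO-4 (adjusted p = 0.00025, quasi-binomial test). The KO-4 call held without any single library. The KO-1 call was lost without any 1 of the KO-1 libraries or without the second-listed WT library. The KO-2 call was lost without the second-listed WT library, and the KO-3 call without the first-listed KO-3 or the first- or second-listed WT library.

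BOP1 had 11 short introns tested, of which 11, 10, 11 and 11 had a change above 0 in KO-1 to KO-4, and 2, 1, 1 and 4 were called higher. Their median changes were 0.29, 0.30, 0.31 and 0.72. The 77 nt intron 6 had means of 6.97% in KO-1 and 7.63% in KO-4, both called, and 3.27% in WT. Its KO-4 call held without any single library, and its KO-1 call remained only without the third-listed WT library. The KO-4 call of the 79 nt intron was lost without the second- or third-listed KO-4 or the second-listed WT library, and that of the 85 nt intron remained only without the third-listed WT library. IMPDH2, which makes the guanine nucleotide precursor XMP, had 8 short introns tested, all with a change above 0 in KO-4 (median 0.69) and 3 of them called there. Its longer introns moved alike in KO-4, with 8 of 8 above 0, 3 called and a median of 0.60, and the 2 longer introns of BOP1 were above 0 there with a median of 0.79. The 108 nt short intron of IMPDH2 intron 3, which shares 1 end with another listed intron, had 5.68%, 3.9% and 3.67% in KO-4 and 2.44%, 2.46% and 2.63% in WT. Its log2 odds rose by 0.84 ± 0.19 (adjusted p = 0.0032), a call lost without the first-listed KO-4 library. The IMPDH2 calls at 77 and 85 nt were lost without any 1 of the KO-4 libraries or the second-listed WT library, and that at 85 nt also without the first-listed WT library. In KO-3 the same 8 introns had a median change of -0.17. The kinesin gene KIFC2 went the other way, with 2 of 9 short introns lower in KO-2 and 3 of 8 in KO-4, and its 2 longer introns were below 0 in both without a call. Its 88 nt intron 16 had 35.6%, 33.4% and 30.5% in KO-2 and 51.1%, 49.5% and 48.0% in WT, and it fell by 1.00 ± 0.18 there (adjusted p = 9.4e-05), also without any single library. In KO-4 the calls at 88 and 91 nt were lost without the first-listed KO-4 library, and that at 91 nt also without the second. Its 80 nt last intron had 17.8%, 18.5% and 33.9% in KO-2, 31.5%, 17.6% and 27.8% in KO-4, and 47.5%, 41.9% and 34.1% in WT, and both calls were lost without the first-listed WT library or the second-listed library of that clone. Annotated exons of other transcripts overlap the 88 and 80 nt introns of KIFC2. Introns of 1 gene share its transcripts and are not independent.

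**Figure D3:**
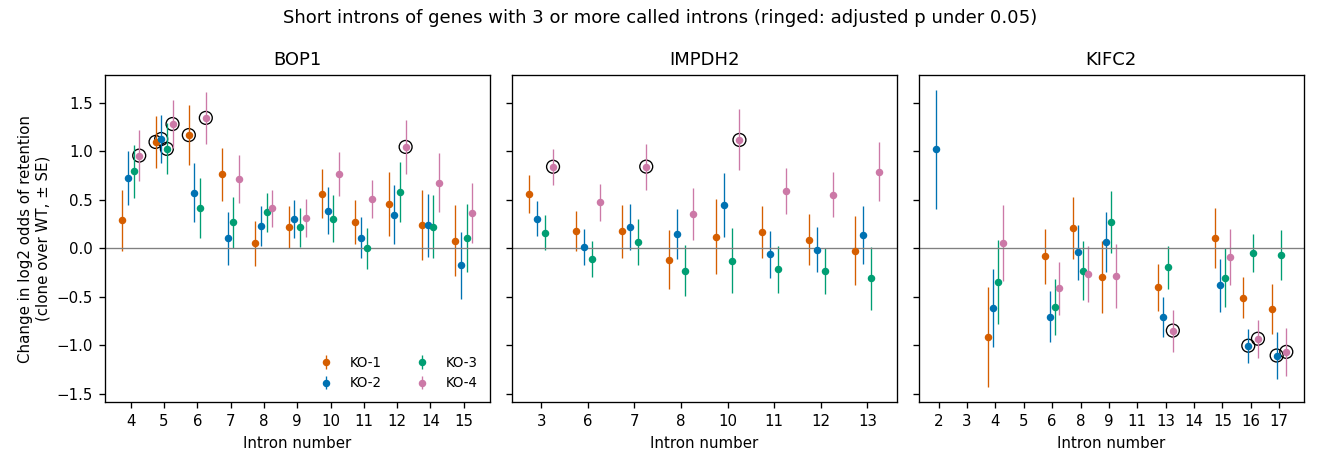
Change in log2 odds of retention (clone over WT, bars ± SE) by intron number for the short introns of BOP1, IMPDH2 and KIFC2, the genes with 3 or more called short introns, with KO-1 to KO-4 left to right at each intron and rings at adjusted p under 0.05. BOP1 introns lie above 0 in all but 1 value, the IMPDH2 calls are all in KO-4, and the KIFC2 calls are at introns 13, 16 and 17.

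Of the 12 U12-type short introns, between 8 and 11 were tested per clone. Higher calls were made for 2 of 8, 2 of 11, 1 of 10 and 1 of 11 in KO-1 to KO-4, and 1 intron was called lower, in KO-3. Among U2-type short introns higher calls were 5 of 1779, 6 of 2047, 4 of 1919 and 15 of 2070. CHD4 made up 4 of the 6 higher calls. ZCCHC8, a scaffold of the nuclear exosome targeting complex, had 37.5%, 40.4% and 46.5% in KO-1 and 19.6%, 12.3% and 23.5% in WT, with no overlap. Its log2 odds rose by 1.66 ± 0.43 in KO-1 (adjusted p = 0.022), and its means in KO-2, KO-3 and KO-4 were 22.9%, 24.5% and 23.3%, not called. The KO-1 call remained only without the third-listed WT library. KRTCAP2, a subunit of the oligosaccharyltransferase, had 13.9%, 10.2% and 11.1% in KO-2 and 5.18%, 5.47% and 8.02% in WT, with no overlap. Its log2 odds rose by 1.00 ± 0.24 in KO-2 (adjusted p = 0.0073) with a value of 0.87 in KO-1 (adjusted p = 0.096). The KO-2 call was lost without the first-listed KO-2 or the first- or second-listed WT library. This KRTCAP2 intron shares 1 end with another listed intron. Annotated exons of other transcripts overlap the introns of KRTCAP2 and ZCCHC8.

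Other U12-type short introns lay on both sides of 0. EDC4, the scaffold of the mRNA decapping complex, had 14.8%, 8.66% and 8.68% in KO-3 and 20.8%, 18.1% and 25.9% in WT, and its log2 odds fell by 1.23 ± 0.28 (adjusted p = 0.006). That call was lost without the second- or the third-listed KO-3 library. The means of EDC4 were 13.7%, 16.2% and 14.5% in KO-1, KO-2 and KO-4 and 21.6% in WT. MAPK12, the p38 gamma kinase, differed among the clones (adjusted p = 3.3e-06), with means of 19.7%, 9.72%, 10.6% and 9.07% in KO-1 to KO-4 and 13.6% in WT, but it passed against WT in none. The means of ARL16, a small GTPase, were 9.87%, 7.81%, 9.53% and 6.72% in the clones and 5.4% in WT, and none passed. NOP2, an rRNA methyltransferase, had 5.45%, 4.94%, 4.13% and 5.21% in the clones and 3.24% in WT without passing. AP4M1, an adaptor complex subunit, had 6.43%, 6.0%, 9.11% and 6.76% in the clones and 10.1% in WT without passing.

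**Figure D4:**
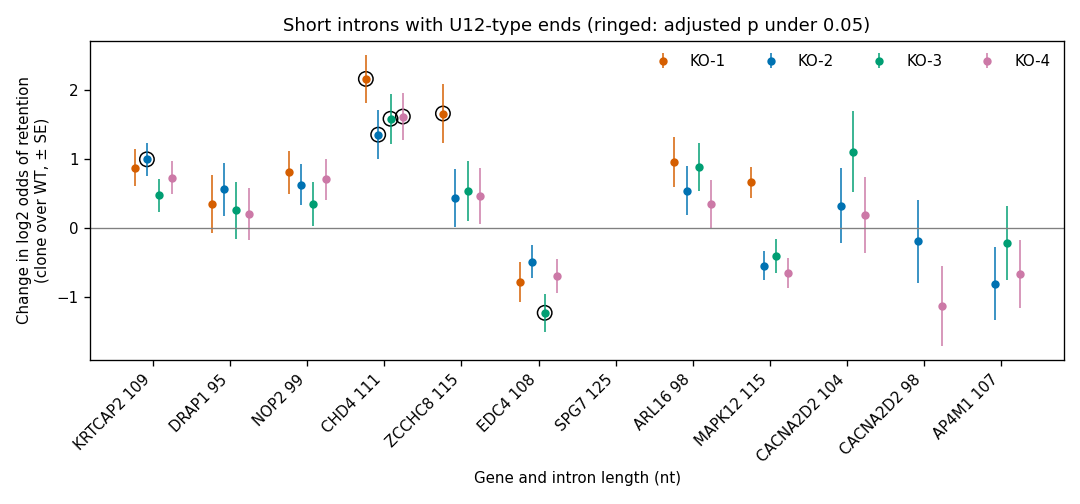
Change in log2 odds of retention (clone over WT, bars ± SE) for each of the 12 short introns with U12-type ends, named by gene and length in nt, with KO-1 to KO-4 in colour, rings at adjusted p under 0.05 and no point where an intron was not tested. CHD4 is ringed in all 4 clones, ZCCHC8 in KO-1, KRTCAP2 in KO-2 and EDC4 below 0 in KO-3.

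Of the 94 introns called in any comparison, 76 passed in 1 clone and 15 in 2. Retention differed among the 4 clones for 192 of 3405 short introns tested (5.64%), against 1169 of 17818 longer introns (6.56%) and 6.41% over all introns, and limma gave 10. BAX, the pro-apoptotic BCL2 family member, had 30.3%, 29.9% and 29.8% in KO-2 for its 87 nt intron 2 of 5, and 11.5%, 7.57% and 11% in WT. KO-2 stood far above WT with no overlap, and its log2 odds rose by 1.96 ± 0.23 (adjusted p = 3.4e-09). The spliced reads were 120 and 143 in the first- and third-listed KO-2 libraries and 348 and 334 in those of WT, while the retained reads were 87, 107 and 101 in KO-2 and 75, 54 and 69 in WT. The other clones had means of 9.90%, 11.4% and 10.9%, and the difference among clones had an adjusted p of 1.6e-13.

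SERBP1, an mRNA-binding protein found on ribosomes, had 4.58%, 3.52% and 2.96% in KO-3 for its 105 nt intron 3 of 7, and 0.224%, 0.209% and 0.205% in WT. Its log2 odds rose by 4.17 ± 0.50 in KO-3 (adjusted p = 2.6e-12), on 58, 48 and 35 retained reads in KO-3 and 6, 7 and 5 in WT. It was the largest change among the named introns, but each WT library had fewer than 10 retained reads. The intron thus passed the minimum only through KO-3, and the filter favoured a rise. The other clones had means of 0.337%, 0.218% and 0.245% and too few retained reads for the test. MKNK2, a kinase that phosphorylates eIF4E, had 24.3%, 28.5% and 29% in KO-2 for its 135 nt intron, and 53.6%, 56.3% and 52.6% in WT. It fell by 1.64 ± 0.19 on the log2 odds scale (adjusted p = 3.4e-09), and the other clones had 47.9%, 51.2% and 47.2%, not called. The 70 nt last intron of the zinc finger gene ZNF276 had 34.8%, 31.1% and 29.9% in KO-2 and 47.8%, 50.8% and 46.6% in WT, and it fell by 1.00 ± 0.20 (adjusted p = 0.0008). These calls of BAX, SERBP1, MKNK2 and ZNF276 held without any single library. Like that of PSMA1, the introns of BAX and SERBP1 share 1 end with another listed intron. Annotated exons of other transcripts overlap the introns of MKNK2 and ZNF276.

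**Figure D5:**
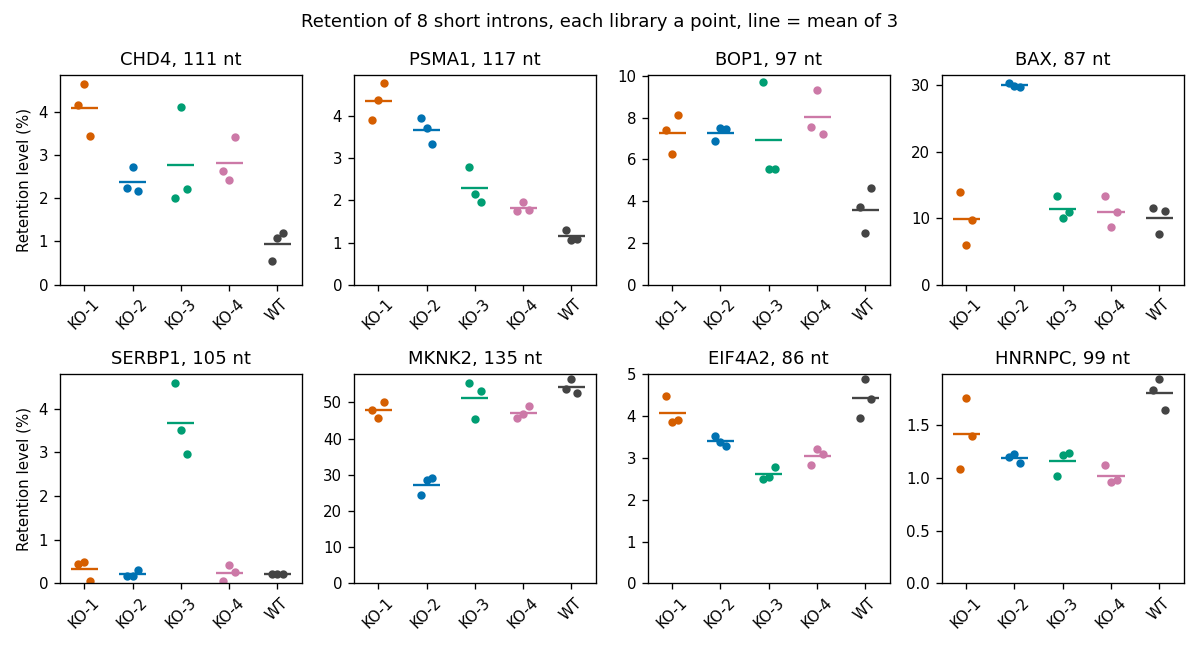
Retention level (percent) of 8 short introns in each library of KO-1 to KO-4 and WT, points for libraries and lines for means of 3; each panel has its own axis from 0. CHD4, PSMA1 and BOP1 are above WT in all 4 clones, BAX is high in KO-2 (about 30.0%) and SERBP1 in KO-3, and MKNK2 is low in KO-2.

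Other introns were called higher in 1 clone. HARS2, the mitochondrial histidyl-tRNA synthetase, had 7.75%, 6.78% and 10.8% in KO-1 and 2.85%, 1.5% and 0.626% in WT (log2 odds 2.35 ± 0.51, adjusted p = 0.00065). Its means in KO-2, KO-3 and KO-4 were 4.67%, 5.22% and 3.93%, not called, and the test among clones did not pass (adjusted p = 0.13). SIDT2, a lysosomal membrane protein, had 38.5%, 48.7% and 45.4% in KO-4 and 8.84%, 6.76% and 19% in WT (2.69 ± 0.58, adjusted p = 0.00082). The dynein assembly factor gene DNAAF3 had 56.8%, 40.3% and 47.5% in KO-2 and 19.1%, 16.7% and 25% in WT (1.95 ± 0.42, adjusted p = 0.0023). In none of these did the libraries of the named clone overlap those of WT. SIDT2 had means of 22.2% in KO-2, not called, and 17.8% in KO-3, where too few reads were retained for the test. DNAAF3 had 27.3%, 27.8% and 23.5% in KO-1, KO-3 and KO-4, none of them called. TINAGL1, a secreted matrix protein, had 4.85%, 4.05% and 4.41% in KO-4 and 1.54%, 0.414% and 1.04% in WT (2.31 ± 0.59, adjusted p = 0.002). Its mean was 4.41% in KO-3, where too few reads were retained for the test. The calls of HARS2, SIDT2, DNAAF3 and TINAGL1 held without any single library. Of these introns, that of DNAAF3 shares 1 end with another listed intron, and annotated exons of other transcripts overlap those of DNAAF3 and SIDT2. The kinase gene CDK9 had 1.67%, 1.05% and 2.09% in KO-2 and 0.437%, 0% and 0.232% in WT, on 3, 0 and 2 retained reads in WT, and its call was lost without the second-listed WT library. WT retained reads were also few in HARS2 (12, 6 and 2), SIDT2 (6, 4 and 9) and TINAGL1 (5, 2 and 5). HARS2, SIDT2, TINAGL1 and CDK9 passed the minimum of 10 retained reads only through the clone in which they were called, so the filter favoured a rise.

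Several short introns passed in 2 clones. EIF4A2, a helicase of translation initiation, had 2.50%, 2.55% and 2.78% in KO-3, 2.83%, 3.20% and 3.09% in the KO-4 libraries, and 3.96%, 4.89% and 4.41% in WT. Both clones were below WT without overlap, and the log2 odds fell by 0.79 ± 0.15 in KO-3 (adjusted p = 0.00083) and 0.57 ± 0.17 in KO-4 (adjusted p = 0.043). The KO-4 call was lost without any 1 of the KO-4 libraries or the second-listed WT library. HNRNPC, an hnRNP that binds uridine-rich RNA, had 1.02%, 1.22% and 1.24% in KO-3, 1.12%, 0.960% and 0.982% in the KO-4 libraries, and 1.84%, 1.94% and 1.65% in WT. It fell by 0.85 ± 0.19 in KO-4 (adjusted p = 0.0032) and 0.67 in KO-3 (adjusted p = 0.04). The KO-4 call was lost without the second-listed KO-4 library, and the KO-3 call without any 1 of the KO-3 libraries or the first- or second-listed WT library. This HNRNPC intron shares 1 end with another listed intron, and an annotated exon of another transcript overlaps it.

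XRCC3, a DNA repair gene, had 30.0%, 32.6% and 35.0% in KO-2, 25.5%, 38.1% and 30.0% in KO-4, and 17.4%, 15% and 22.8% in WT, with no overlap. It rose in KO-2 (log2 odds 1.12, adjusted p = 0.011) and KO-4 (1.02, adjusted p = 0.019). Both calls were lost without the first- or the second-listed WT library, and that in KO-2 also without the second- or third-listed KO-2 library and that in KO-4 without the second-listed KO-4 library. S100A4, a calcium-binding protein, rose in the 148 nt intron of its 5′UTR, with 59.0%, 58.7% and 62.3% in KO-2, 63.1%, 62.0% and 60.6% in KO-4, and 51.5%, 48.0% and 41.6% in WT. Its calls (adjusted p = 0.045 in KO-2 and 0.0029 in KO-4) were lost without the third-listed WT library, and that in KO-2 also without the second-listed WT library or any 1 of the KO-2 libraries. The phosphatase gene PTPN6 fell in 2 neighbouring short introns in KO-2, its 93 nt intron 12 having means of 3.87% in KO-2 and 10.8% in WT and its 104 nt intron 13 having 5.39% in KO-2, 5.44% in KO-4 and 12.5% in WT. Only the 104 nt intron passed in KO-4, and these calls were lost without the first-listed WT library (93 nt in KO-2, 104 nt in KO-2) or the third (104 nt in both clones), and without single libraries of the clones.

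Lower calls included retained introns of high level. VPS9D1 had 58.0%, 61.3% and 71.6% in KO-4 and 76.0%, 85.7% and 82.1% in WT, without overlap, and it fell by 1.36 ± 0.33 (adjusted p = 0.0088). The call was lost without the first- or second-listed KO-4 or the second-listed WT library. An annotated exon of another transcript overlaps this VPS9D1 intron. A 109 nt intron assigned to both NDUFS3, a subunit of respiratory complex I, and PTPMT1, a mitochondrial phosphatase, had 21.0%, 20.1% and 24.3% in KO-4 and 34.0%, 33.9% and 30.1% in WT. It fell by 0.82 ± 0.17 (adjusted p = 0.00096), also without any single library. Of the 22 lower calls in KO-4, 15 were introns overlapped by an annotated exon of another transcript, and of the 15 in KO-2, 12 were. Such introns made up 1199 of 3780 tested in KO-4 and 1177 of 3664 in KO-2. In KO-1 1 of 2 lower calls and in KO-3 1 of 5 had an overlapping exon. With only introns free of such exons, retained-intron transcripts not counted, 19 rose and 6 fell in KO-4, and 7 rose and 1 fell in KO-2.

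GC content is given as a description. Over short introns with a readable sequence the Spearman correlation between GC content and change was -0.08, -0.17, -0.08 and -0.15 for clones KO-1 to KO-4 (n = 1790 to 2084 introns, which share libraries and depth). In KO-2 the median change was 0.09 for GC below 50% (363 introns) and -0.07 from 60% upward (1214 introns). The second class held 10 of the 11 lower calls with a sequence in KO-2, and 1214 of the 2061 introns tested there. In KO-4 it held 12 of 17 lower and 9 of 17 higher calls, beside 1223 of 2084 introns tested. In KO-3 it held 0 of 3 lower calls and in KO-1 the only one. The part that composition or fragment length plays in this was not tested. Coding short introns without an in-frame stop and with a length divisible by 3 numbered 333 of 3014 read (11%), and had a median WT level of 8.69% against 5.56% for the others.

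Gene lists were read as counts beside the shares called over all introns tested, which were 1.29%, 1.3%, 0.558% and 1.54% higher and 0.175%, 0.304%, 0.155% and 0.429% lower in KO-1 to KO-4. With so few introns tested per list, 1 or 2 calls are given as values and not as a result about a list. Of the 94 short introns of genes taken to carry a U12-type intron, a list from background knowledge whose genes were not all checked for such ends, 26 to 30 were tested, and 2, 2, 1 and 1 were called higher in KO-1 to KO-4 and none lower. These calls were PSMA1 in 3 clones, the prefoldin subunit PFDN5 in KO-2 and KO-4, and VPS16, a subunit of endosomal tethering complexes, in KO-1, where the call was lost without the first-listed KO-1 library. The introns called in PSMA1 and PFDN5 have U2-type ends, and no ends were read for VPS16. The called U12-type introns of CHD4, ZCCHC8, KRTCAP2 and EDC4, found by their ends, were not in these counts. That of EDC4 was called lower in KO-3. PFDN5 had 2.13%, 1.87% and 1.88% in KO-2, 2.54%, 2.0% and 1.99% in KO-4, and 0.881%, 0.830% and 1.34% in WT. It rose by 0.97 in KO-2 (adjusted p = 0.032) and by 1.14 in KO-4 (adjusted p = 0.0037), and the KO-2 call remained only without the third-listed WT library. The KO-4 call was lost without the first-listed KO-4 library.

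In most lists few or no short introns passed. For minor spliceosome proteins 2 to 4 short introns were tested and none was called in either direction. The nearest, the 145 nt intron of CCDC84, had 22.6%, 18.6%, 20.3% and 22.3% in KO-1 to KO-4 and 15.6% ± 2.0 in WT. For RNA polymerase II and general transcription 24 to 31 were tested and none was called. Of the factors of short-intron and branch site recognition (17 to 20 tested), none rose, and 1 fell in each of KO-3 (SF3B2, a U2 snRNP protein) and KO-4 (the 92 nt intron of HNRNPH1). SF3B2 was no longer called without any 1 of the KO-3 libraries or the first- or third-listed WT library, and HNRNPH1 without the second-listed KO-4 or the third-listed WT library. The median change of that list was 0.09, 0.01, 0.00 and 0.12. Of SR proteins and hnRNPs (30 to 33 tested), none rose, and 1 fell in KO-3 and 2 in KO-4, with medians of 0.29, 0.07, -0.06 and 0.07. For the median over all introns the values were 0.13, 0.10, 0.02 and 0.17.

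Ribosomal protein genes had 48 to 53 short introns tested, with 2, 0, 1 and 1 higher, beside 1.29%, 1.3%, 0.558% and 1.54% over all introns, and 1 lower, in KO-4. RPL30 rose in a 108 nt intron of its 5′UTR, with 2.15%, 2.77% and 2.31% in KO-3 and 1.4%, 1.51% and 1.66% in WT (log2 odds 0.67 ± 0.10, adjusted p = 3.8e-06). In KO-1 RPL30 had 1.80%, 2.08% and 2.08%, and its call there (adjusted p = 0.047) remained only without the third-listed WT library. RPS27A, which encodes a ubiquitin-ribosomal protein fusion, rose in KO-1 with 28.3%, 29.1% and 30.9% against 22.7%, 25.7% and 26.4% in WT (0.33 ± 0.07, adjusted p = 0.0056), a call lost without the second- or third-listed KO-1 or the first-listed WT library. RPL8 fell in its 104 nt intron in KO-4, with 13.3%, 8.08% and 12% against 17.5%, 17.6% and 15.2% in WT (-0.72 ± 0.14, adjusted p = 0.00071), a call lost without the second-listed KO-4 library. Proteasome genes had 21 to 29 tested, and the only call in KO-1, KO-2 and KO-3 was PSMA1. Aminoacyl-tRNA synthetases had 33 to 37 tested, with HARS2 the only call, and DNA repair genes 41 to 51, with XRCC3 the only call in KO-2 and in KO-4.

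Tubulin and actin genes had 17 to 19 short introns tested, with 1 higher in KO-3 and 1 lower in KO-4. The 112 nt intron of ACTB had 0.246%, 0.274% and 0.184% in KO-3 and 0.0864%, 0.0569% and 0.0901% in WT, without overlap (log2 odds 1.66 ± 0.40, adjusted p = 0.013). That call was lost without the first- or second-listed KO-3 or the second-listed WT library. Mitochondrial ribosomal protein genes had 27 to 30 tested and 2 higher, both in KO-2. Of these MRPS26 had means of 5.01% ± 0.48 in KO-2 and 2.50% ± 0.24 in WT (1.04 ± 0.29, adjusted p = 0.03), and its call remained only without the third-listed WT library. Oxidative phosphorylation genes had 19 to 22 tested, with 1 higher in KO-3 and 1 lower in KO-4, which was the intron shared by NDUFS3 and PTPMT1.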

How the data were processed

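Polyadenylated RNA of HCT116 cells was sequenced in 15 libraries from a directional kit, 3 for each of 4 clones and WT. The trimmer was cutadapt 2.0 and the aligner STAR 2.7.1a, with genome hg38, per the submitters' processing notes. For the junction counter and the authors' test, the program is not given in the sources used here. There is 1 deposited table per clone, and per the file headers its cells hold raw counts of retained and spliced junction reads, in lists of 3 libraries, with effective lengths of the forms (131 positions spliced, up to 262 retained). Levels were computed here from these counts and lengths. The authors deposited inclusion levels as fractions too, with their difference as a score, and p-values with FDR. Only the FDR and p-values were used, as an alternative. The first group of each table was taken as the clone from the table's name. The second was taken as WT and was the same in all 4 tables. Libraries have no replicate number in the lists, and their names here follow the listed order.

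Introns of any length with enough reads (10 of each form on average) were fitted per clone against WT with a quasi-binomial model in R 4.3.3. Its Pearson dispersion was moderated with limma 3.58.1 (squeezeVar), with a trend on retained reads, and floored at 1. A two-sided F test was adjusted by Benjamini-Hochberg at 0.05. The same model over the 12 clone libraries tested the difference among clones. The fits were tested on simulated data. Shares of longer introns were standardised to the short introns' bins of retained reads, with edges at 10, 20, 50, 100, 200 and 500. Summaries were made in Python 3.11.15. Sequences and positions come from GENCODE release 29. The alternatives were the authors' FDR, centring on the median intron, limma on log2 odds with 0.5 added to counts, and 1 fit over all groups. Others were a minimum of 50 reads or none, only introns without an overlapping exon (retained-intron transcripts not counted), and leaving out each library.

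The 91 named introns were, with at most 1 per gene in each part of the rule, those called in at least 3 comparisons in 1 direction, the 5 largest rises and falls per clone, the 6 highest and 6 lowest WT levels, the 5 shortest, up to 4 for each of 12 gene lists, and the 5 with the smallest p among clones. The U12-type introns and the introns called in genes with 3 or more calls are described beside them. The members, the lists and this rule were chosen with earlier results of these data known.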

Additional observations from a re-analysis of the deposited data

Results flagged for a closer look

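Retention differed among the 4 clones for 192 short introns, by the quasi-binomial F test over their 12 libraries with Benjamini-Hochberg adjustment. Each intron below passed that test, which sets single isolates against each other and does not settle a difference for every intron. With limma on the log2 odds 10 short introns passed. The smallest adjusted p were those of SERBP1 (105 nt, 2.8e-21, highest in KO-3), BAX (87 nt, 1.6e-13, highest in KO-2), MKNK2 (135 nt, 6.4e-12, lowest in KO-2) and S100A4 (148 nt, 2.6e-10, high in KO-2 and KO-4). SERBP1 passed the minimum of retained reads there only through KO-3. PSMA1 (117 nt) had 4.2e-08, with its highest levels in KO-1 and KO-2, and MAPK12 (115 nt) had 3.3e-06, with its highest level in KO-1. The 88 nt intron of KIFC2 had 3.4e-05 and its 80 nt intron 0.0017, both lowest in KO-2. RPL30 (108 nt), highest in KO-3, had 6.4e-05, and ZNF276 (70 nt), lowest in KO-2, had 0.00016.

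The lowest level was in KO-4 for VPS9D1 (77 nt, 0.00049), HNRNPH1 (92 nt, 0.00062), RPL8 (104 nt, 0.00093) and HYI (97 nt, 0.024), in KO-3 for EIF4A2 (86 nt, 0.011) and in KO-2 for SYTL1 (119 nt, 0.0096). The highest level was in KO-4 for RAB26 (94 nt, 0.039) and for 3 introns of IMPDH2 (0.0072 for 85 nt, 0.034 for 77 nt and 0.015 for 108 nt). It was in KO-2 for DNAAF3 (94 nt, 0.0027). The 77 nt intron of BOP1 (0.0073) was highest in KO-4 and KO-1, XRCC3 (115 nt, 0.014) in KO-2 and KO-4, and TINAGL1 (84 nt, 0.0011) in KO-4 and KO-3. CNBP (125 nt, 0.0017), SNHG7 (115 nt, 0.024) and MED24 (144 nt, 0.036) differed among the clones, while none of these 3 passed the quasi-binomial test against WT in any clone, and neither did MAPK12.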

How the results depend on the processing

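Counts of short introns are given as higher and lower for the clones in order of their number. As reported they were 16 and 2, 16 and 15, 9 and 5, and 32 and 22. With the FDR of the authors' deposited table they were 35 and 7, 49 and 49, 24 and 14, and 77 and 31. Centred on the median intron they were 7 and 5, 9 and 35, 7 and 6, and 10 and 40. Limma on log2 odds gave 1 and 0, 0 and 0, 1 and 0, and 0 and 0. With at least 50 reads of each form they were 4 and 0, 8 and 14, 2 and 3, and 15 and 16. With no overlapping exon, retained-intron transcripts not counted, they were 7 and 0, 7 and 1, 4 and 3, and 19 and 6. With 1 fit over all 5 groups they were 15 and 2, 25 and 29, 13 and 9, and 35 and 24. With no filter they were 22 and 2, 27 and 29, 15 and 9, and 38 and 32. Leaving out 1 library gave 5 to 57 higher and 0 to 7 lower in KO-1, 6 to 44 and 9 to 18 in KO-2, 4 to 24 and 2 to 11 in KO-3, and 11 to 117 and 6 to 26 in KO-4, the highest of each without the third-listed WT library. The stricter filter and the exclusion of exons leave fewer introns to test, and otherwise the cause was not tested.

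The count among clones was 10 with limma and 95 with at least 50 reads, and 138 to 203 without 1 library. The median level with no division by lengths was 13.6%, 12.7%, 12.8% and 13.4% in the clones and 12.9% in WT. Over every listed intron it was 1.99%, 1.82%, 1.76% and 1.97% in the clones and 1.76% in WT. With at least 50 reads it was 16.5%, 15% (KO-2), 16.4% and 15.5% in the clones and 16.1% in WT. Without 1 library it was 8.11% to 8.45%, 7.39% to 7.90%, 7.53% to 7.97% and 8.11% to 8.15% in the clones, and 7.30% to 8.37% in WT. For the introns described, 74 values were called. Of 883 alternatives to these, 597 kept the call, 286 lost it and 0 reversed. In every fit without 1 library 18 of the 74 were called, and limma called 2. No paired analysis was possible because the lists carry no replicate numbers. The planned edgeR alternative was not run.

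Depth limits these calls: at most 33.2% of the listed short introns had enough reads to be tested in a clone, and the rest were tested only in the fit with no filter.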
